A study of Mus musculus with 9 samples.

Results

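The 10 genes described here encode 5 secreted guidance cues, the Slits Slit1, Slit2 and Slit3 and the netrins Ntn1 and Ntn4, and 5 receptors, Robo1, Robo2, Unc5b, Unc5c and Dcc. They were taken by symbol from a table of RNA sequencing counts for 47729 mouse genes. Each symbol had 1 entry, and all 10 were among the 15696 genes with enough reads to be tested. RNA was measured in 9 libraries, 3 cultures of each of 3 cell types. LTR cultures (1, 2 and 3) are tumour cells whose genotype is labelled lgT/Ras. NF1 cultures (1, 2 and 3) are tumour cells labelled shp53, Nf1-/- and CDK4. NSC cultures (1, 3 and 5) are primary neural stem cells of wild type genotype from the subventricular zone, a stem cell niche of the brain that lines the ventricles. The tumour cells derive from such stem cells, and all cells were kept in stem cell culture for at most 10 passages. The labels and protocols used here name neither the constructs and promoters behind the genotypes nor whether the 3 cultures of a tumour group were transformed separately. If they were not, the p-values measure only the spread between cultures of one line.

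Slits are large secreted proteins that bind Robo receptors and repel growing axons and migrating neurons, including the neuroblasts that leave the subventricular zone. Netrin-1 is a laminin-related cue that attracts through DCC and repels through UNC5 receptors, and DCC and UNC5 proteins are called dependence receptors because they can promote cell death when no ligand is bound. Netrin-4 binds the laminin gamma 1 chain and sits mainly in basement membranes.

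Total counts ran from 28600479 in LTR 2 to 57231024 in NSC 3. Levels are given as CPM, read counts scaled to library size, and a floor of 3 counts lay between 0.0541 CPM in NSC 3 and 0.114 CPM in LTR 2. On the first principal component, which held 70.6% of the variance, NF1 2 scored -21.2, against 85.1 and 109 for NF1 1 and NF1 3, 84.6 to 92.2 in LTR and -150.4 to -136 in NSC. Trp53, the gene named by the shp53 label, was higher in the NF1-labelled libraries (217, 151 and 221 CPM) than in NSC (107, 114 and 101 CPM; log2 fold change 0.87 ± 0.20, adjusted p = 0.0141 by edgeR's quasi-likelihood test). Nf1 was at 59.03, 97.2 and 40.1 CPM in the NF1-labelled libraries and at 109.6, 82.5 and 114 CPM in NSC, and the difference did not pass (adjusted p = 0.205). Gene counts can keep reads of a disrupted gene or a targeted mRNA, so Nf1 and Trp53 are a weak check of the label. Cdk4, the third gene of the label, was at 795, 393 and 1124 CPM in NF1 1, 2 and 3, against 334, 456 and 325 CPM in NSC, and the difference did not pass (adjusted p = 0.053). In NF1 2, both Cdk4 and Nf1 lay within the NSC range. The construct behind the CDK4 label is not named and Nf1 is a weak check, so these levels cannot decide whether the label holds. NF1 2 also lay apart from NF1 1 and NF1 3 on the first principal component. Results for the 10 genes that rest on NF1 2 are also given without it, as are counts over lists of other pathway genes. Levels and calls of single genes in those lists are given with all libraries only. Cdk4 was at 1015, 935 and 1020 CPM in LTR, whose label does not name it (adjusted p = 0.0135 against NSC). Trp53 was also higher in LTR than in NSC, at 223, 281 and 255 CPM (adjusted p = 0.00258 by the same test). Nf1 was at 80.0, 40.3 and 58.0 CPM in LTR, and the difference from NSC did not pass (adjusted p = 0.107). Among neural stem cell markers, the summed level of 11 genes was 6779 to 12630 CPM in LTR, 11160 to 13460 CPM in NF1 and 13550 to 14420 CPM in NSC, with Hes5 at or under 3 counts over the LTR libraries. The column headers give lane L007 for all tumour libraries and lane L001 for all NSC libraries, so lane and cell type cannot be told apart.

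Promoter sequences are shown to set the gene that was higher in tumour cells, Unc5b, beside a ligand and a receptor that were lower, Slit2 and Robo2. Each is the 250 bases before a RefSeq transcript start (GRCm38.p6), in the direction of transcription. Capitals mark matches, on either strand, to the GC box GGGCGG, the AP-1 motif TGANTCA, the E-box CACGTG, the TEAD motif GGAATG, the TATA motif TATAAA or the ETS core CCGGAA.
Unc5b (chr10:60831582-60831831, minus strand): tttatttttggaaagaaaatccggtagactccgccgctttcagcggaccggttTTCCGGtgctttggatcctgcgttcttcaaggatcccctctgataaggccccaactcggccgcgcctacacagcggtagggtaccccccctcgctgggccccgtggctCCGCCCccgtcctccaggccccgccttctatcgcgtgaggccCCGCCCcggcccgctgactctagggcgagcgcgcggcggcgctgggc
Slit2 (chr5:47982905-47983154, plus strand): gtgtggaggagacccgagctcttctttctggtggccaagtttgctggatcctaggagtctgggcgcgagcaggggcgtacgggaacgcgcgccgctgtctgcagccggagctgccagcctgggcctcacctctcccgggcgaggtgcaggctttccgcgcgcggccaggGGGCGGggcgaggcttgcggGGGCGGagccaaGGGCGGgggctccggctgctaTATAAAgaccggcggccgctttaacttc
Robo2 (chr16:74411826-74412075, minus strand): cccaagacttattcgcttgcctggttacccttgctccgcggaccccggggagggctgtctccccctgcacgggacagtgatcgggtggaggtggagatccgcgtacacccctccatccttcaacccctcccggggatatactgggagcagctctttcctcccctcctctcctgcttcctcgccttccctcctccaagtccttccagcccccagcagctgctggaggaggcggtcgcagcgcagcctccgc
The Unc5b window held 2 GC boxes and 1 ETS core. The Slit2 window held 3 GC boxes and 1 TATA motif, which began at base 223 of the window. This Robo2 window held none of the 6 motifs. Robo2 has 3 RefSeq windows, of which the one shown ends next to the annotated gene start, and 1 of the others (chr16:75447294-75447543, minus strand) held an E-box at base 233. All 3 windows were rich in G and C, at 66.8%, 69.6% and 65.6%, with 27, 25 and 14 CpG dinucleotides in Unc5b, Slit2 and Robo2. Among 32851 promoter windows of this length, 32.7% held a GC box, 6.75% the AP-1 motif, 6.02% the E-box, 12.6% the TEAD motif, 12.4% the TATA motif and 12% the ETS core. These matches describe letters in the windows only. RefSeq entries were found for 7 of the 10 genes.

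Both kinds of tumour cell had far less RNA of most of these cues and receptors than the neural stem cells. Unc5b went the other way, and Dcc passed in neither tumour group. In LTR, 8 of the 10 genes were lower than in NSC at an adjusted p under 0.05, and none was higher. Over all genes tested, 35.9% passed in this comparison, 20.9% as lower and 14.9% as higher. Unc5b had an unadjusted p under 0.05 and was called higher in LTR by DESeq2. In the NF1-labelled cultures, 7 genes were lower and 1, Unc5b, was higher than in NSC, beside 23.1% of all genes, 13.1% lower and 10.1% higher. The median log2 fold change of the 10 genes was -4.36 in LTR against NSC and -3.66 in NF1 against NSC, and over all genes tested it was -0.06 and 0.0. All 10 genes had LTR libraries that did not overlap the NSC libraries, 9 lower and 1 higher, beside 59% of all genes, 32% lower and 26.9% higher. In NF1 this held for 9 genes, 8 lower and 1 higher, beside 42.3% of all genes, 23.7% lower and 18.7% higher. At an unadjusted p under 0.05 were 9 of the 10 genes in LTR, beside 47.5% of all genes, and 8 in NF1, beside 38.4%, and DESeq2 called 34.4% and 24.9% of all genes in these comparisons. Both comparisons use the same NSC libraries. The LTR count of lower genes was 5 without LTR 2 and 3 without LTR 3, and Unc5b passed as higher in LTR without NSC 3 or NF1 2. In NF1, Unc5b no longer passed without LTR 1, NF1 1, NSC 1 or NSC 5.

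**Figure D1:**
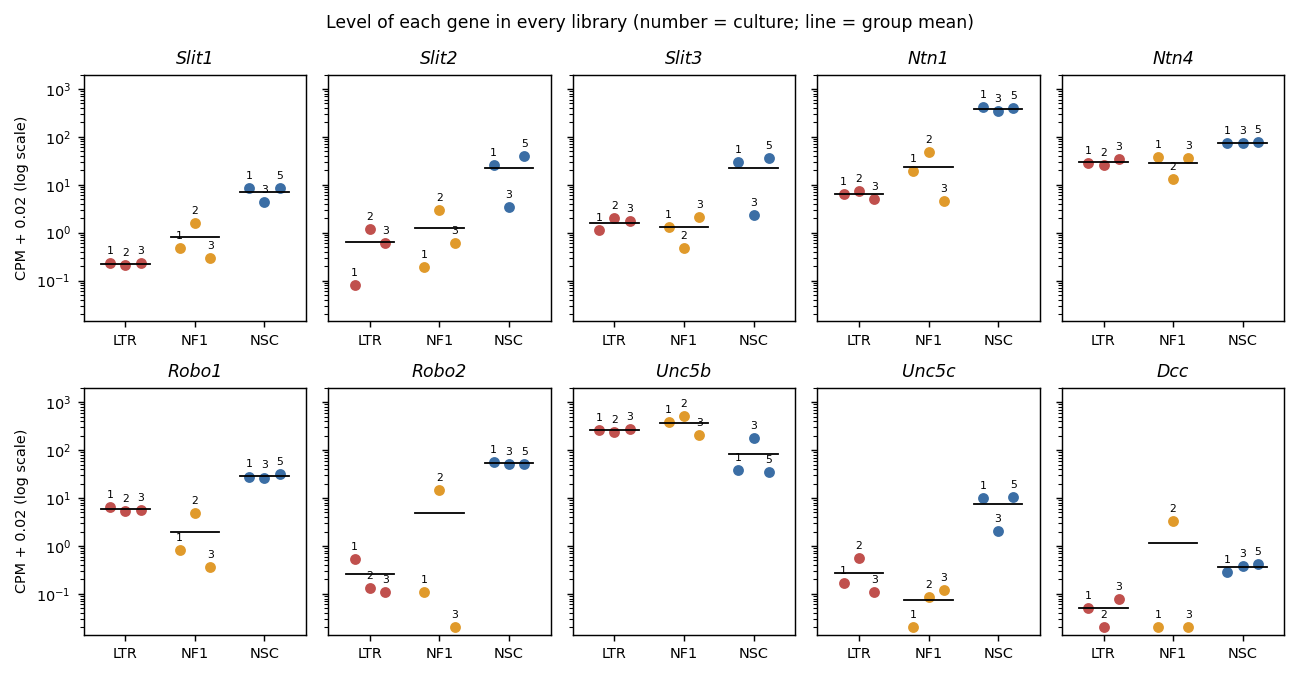
Level of each gene in every library, in CPM + 0.02 on a log axis, with 1 point per culture, its number above it and a line at the group mean. The stem cell points lie above the tumour points for 8 genes, below them for Unc5b, and for Dcc 1 NF1 culture lies above them.

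Ntn1, which encodes netrin-1, was the most abundant of the 5 cues in NSC and was lower in both tumour groups. It lies on chromosome 11 (68209364 to 68400823, minus strand; GRCm38; ENSMUSG00000020902). Ntn1 was at 6.37, 7.36 and 4.99 CPM in LTR 1, 2 and 3, at 19.7, 47.7 and 4.47 CPM in NF1 1, 2 and 3, and at 424, 341 and 406 CPM in NSC 1, 3 and 5. The highest tumour library, NF1 2, was still far under the lowest NSC library, and the NF1 cultures spread over 10.7-fold where the NSC cultures spread over 1.24-fold. The mean was 6.24 ± 1.19 CPM in LTR and 23.95 ± 21.9 CPM in NF1, against 390.4 ± 43.6 CPM in NSC (SD, n = 3 each). The log2 fold change was -5.97 ± 0.76 in LTR against NSC (SE; 62.6-fold lower; adjusted p = 0.00128) and -4.03 ± 0.69 in NF1 against NSC (16.3-fold lower; adjusted p = 0.0048), by edgeR's quasi-likelihood test with Benjamini-Hochberg adjustment over all genes tested, the test used throughout. In bulk RNA, fewer cells that make a transcript and less of it per cell cannot be told apart.

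Ntn4, the basement membrane netrin (chromosome 10, 93640681 to 93747207, plus strand; ENSMUSG00000020019), was lower by a much smaller factor. It was at 28.5, 25.8 and 34.1 CPM in LTR, at 38.0, 13.35 and 35.5 CPM in NF1 and at 73.8, 73.0 and 79.4 CPM in NSC. The NSC libraries were close together and all above the tumour libraries, of which NF1 2 was lowest. Ntn4 fell to 29.5 ± 4.26 CPM in LTR and 29.0 ± 13.6 CPM in NF1, against 75.4 ± 3.48 CPM in NSC (SD, n = 3 each), which is 2.56-fold and 2.6-fold lower. The log2 fold changes were -1.36 ± 0.35 in LTR (adjusted p = 0.0158) and -1.38 ± 0.35 in NF1 (adjusted p = 0.0212). The call is close to the threshold. In LTR it was lost without LTR 2, LTR 3 or NSC 3 (adjusted p 0.0503 to 0.0848), and in NF1 without LTR 3 or any 1 NSC library (0.0522 to 0.0645).

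All 3 Slit genes passed as lower in both tumour groups, and they differed in how evenly the NSC cultures expressed them. Slit1 (chromosome 19, 41600257 to 41743665, minus strand; ENSMUSG00000025020) was at 0.208, 0.191 and 0.209 CPM in LTR, at 0.464, 1.60 and 0.273 CPM in NF1 and at 8.36, 4.28 and 8.72 CPM in NSC. Its groups did not overlap, and the LTR libraries lay within 1.10-fold of each other. Its log2 fold change was -5.11 ± 0.74 in LTR (34.5-fold lower; adjusted p = 0.0018) and -3.18 ± 0.66 in NF1 (9.09-fold lower; adjusted p = 0.0101).

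Slit2 (chromosome 5, 47983138 to 48307733, plus strand; ENSMUSG00000031558) was at 0.0593, 1.18 and 0.597 CPM in LTR, at 0.174, 3.01 and 0.58 CPM in NF1 and at 25.5, 3.36 and 39.1 CPM in NSC. NF1 2 and NSC 3 nearly met, at 3.01 and 3.36 CPM, while the other NSC cultures were far above every tumour culture. The log2 fold change was -5.22 ± 1.35 in LTR (37.3-fold lower; adjusted p = 0.0166) and -4.17 ± 1.27 in NF1 (18.0-fold lower; adjusted p = 0.0428). The LTR call was lost without LTR 3 or NSC 5 (adjusted p 0.0593 and 0.05), and the NF1 call without LTR 3, NF1 1, NF1 3, NSC 1 or NSC 5 (0.0614 to 0.124).

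Slit3 (chromosome 11, 35121224 to 35708507, plus strand; ENSMUSG00000056427) was at 1.10, 1.98 and 1.70 CPM in LTR, at 1.30, 0.448 and 2.08 CPM in NF1 and at 29.6, 2.27 and 36.6 CPM in NSC. As for Slit2, NSC 3 lay just above the highest tumour library and the other NSC cultures lay far above. The log2 fold change was -3.84 ± 0.93 in LTR (14.3-fold lower; adjusted p = 0.013) and -4.16 ± 0.95 in NF1 (17.8-fold lower; adjusted p = 0.0146). The LTR call was lost without LTR 3 (adjusted p = 0.0514), and the NF1 call without NF1 1 (0.056). Slit2 and Slit3 hold the microRNA genes Mir218-1 and Mir218-2 within their bounds, and these share no exon base with their hosts.

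The Slit receptor genes Robo1 and Robo2 lie on chromosome 16 and were lower in tumour cells as well. Robo1 (72308306 to 73046095, plus strand; ENSMUSG00000022883) was at 6.37, 5.42 and 5.73 CPM in LTR, at 0.811, 4.77 and 0.341 CPM in NF1 and at 28.1, 26.8 and 31.5 CPM in NSC. Here the LTR and NSC cultures were each tight, every NF1 culture lay under every LTR culture, and NF1 2 was next to LTR. Its log2 fold change was -2.30 ± 0.75 in LTR (4.93-fold lower; adjusted p = 0.0384) and -3.87 ± 0.80 in NF1 (14.6-fold lower; adjusted p = 0.0101). The LTR call was lost when any 1 LTR or NSC library was left out (adjusted p 0.0639 to 0.105).

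Robo2 (73891839 to 74411825, minus strand; ENSMUSG00000052516) was at 0.504, 0.114 and 0.0896 CPM in LTR, at 0.0869, 14.5 and 0 CPM in NF1 and at 56.1, 52.1 and 50.4 CPM in NSC. LTR, NF1 1 and NF1 3 were near the counting floor, and NF1 2 alone lay between them and NSC. The log2 fold change in LTR was -7.75 ± 1.99 (216-fold lower; adjusted p = 0.016), and the call was lost without LTR 2 or LTR 3 (adjusted p 0.0581 and 0.0593). In NF1 it was -3.44 ± 1.56 and did not pass (adjusted p = 0.137). Without NF1 2, only 3 Robo2 counts remained in NF1, against 6884 in NSC, a level 1122-fold lower (exact 95% counting interval 383.8 to 5443), and the difference passed (adjusted p = 7.43e-05).

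Unc5b, a netrin receptor of the UNC5 family, went the other way. Per kilobase of exon union it was the most abundant of the 5 receptor genes in every library, whereas per kilobase of principal transcript Robo2 was above it in NSC 1 and NSC 5. It lies on chromosome 10 (60762593 to 60831581, minus strand; ENSMUSG00000020099). Unc5b was at 267, 236 and 279.6 CPM in LTR, at 396, 511 and 204 CPM in NF1 and at 38.8, 179 and 35.4 CPM in NSC. Every tumour library was above every NSC library, and NSC 3 was 4.82 times the mean of the other NSC cultures. The mean was 260.9 ± 22.2 CPM in LTR and 370.3 ± 154.9 CPM in NF1, against 84.3 ± 81.7 CPM in NSC (SD, n = 3 each). The log2 fold change was 2.13 ± 0.61 in NF1 (4.39-fold higher; adjusted p = 0.0344) and 1.63 ± 0.60 in LTR, where it did not pass (adjusted p = 0.0604). Without NSC 3 it was 2.94 in LTR and passed (adjusted p = 0.00188), and without NF1 2 it also passed (0.0431). The NF1 call was lost without LTR 1, NF1 1, NSC 1 or NSC 5 (adjusted p 0.0511 to 0.109).

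Unc5c, of the same receptor family, moved opposite to Unc5b. It lies on chromosome 3 (141465216 to 141834924, plus strand; ENSMUSG00000059921) and was at 0.148, 0.534 and 0.0896 CPM in LTR, at 0, 0.064 and 0.102 CPM in NF1 and at 9.98, 2.08 and 10.6 CPM in NSC. NSC 3 was the lowest NSC culture and still above all tumour cultures. The log2 fold change was -4.89 ± 0.98 in LTR (29.7-fold lower; adjusted p = 0.00633) and -7.04 ± 1.13 in NF1 (132-fold lower; adjusted p = 0.00373), with 5 counts in all NF1 libraries. Unc5c shares 118 exon bases with the antisense gene Gm15688, and since the library kit does not mark strand, reads there cannot be assigned to either gene.

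Dcc, the attractive netrin receptor (ENSMUSG00000060534), was near the limit of detection in every library but NF1 2. It had 1, 0 and 2 counts in LTR 1, 2 and 3, 0, 105 and 0 counts in NF1 1, 2 and 3, and 10, 20 and 15 counts in NSC 1, 3 and 5. In CPM, NF1 2 reached 3.36, against at most 0.402 in NSC. The LTR level was 10.7-fold lower than NSC by the counts (exact 95% counting interval 3.45 to 54.0), and neither LTR (log2 fold change -3.31 ± 2.0, adjusted p = 0.219) nor NF1 (1.70 ± 1.54, adjusted p = 0.445) passed. Without NF1 2 the NF1 cultures had no Dcc count and were at least 7.33-fold lower than NSC, against a floor of 3 counts over the group, with the fitted difference past the threshold (adjusted p = 0.00801). LTR then passed too (adjusted p = 0.0134).

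**Figure D2:**
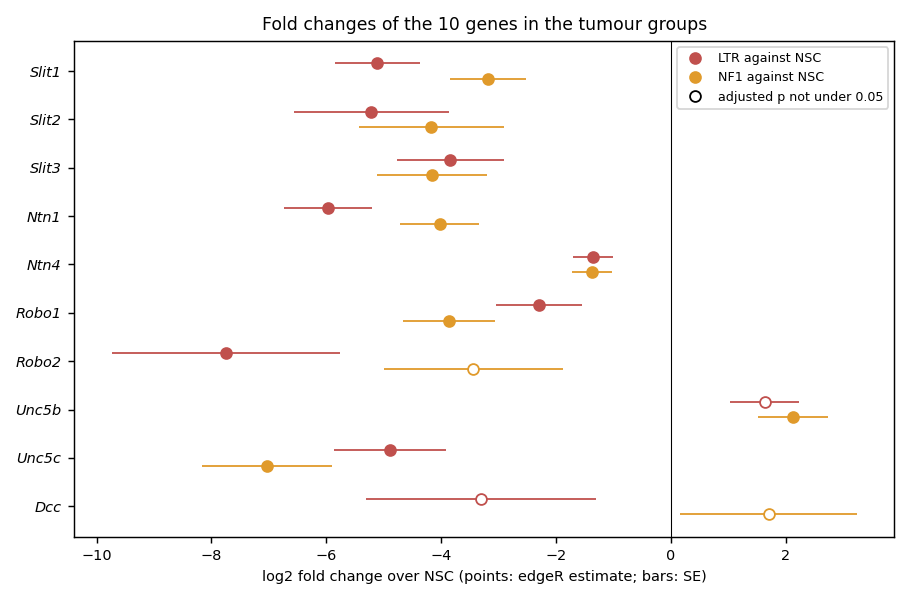
Log2 fold change of each gene in LTR against NSC and NF1 against NSC, as edgeR estimates with SE bars and open points where the adjusted p was not under 0.05. Unc5b lies right of 0 in both comparisons, at 1.63 in LTR and 2.13 in NF1, Dcc lies right of 0 in NF1 only, and the others lie left.

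Set directly against each other, the 2 tumour groups gave no call. For NF1 against LTR, 0 of the 10 genes passed edgeR's test, as did 0.0% of all genes, while 4 of the 10 and 10.2% of all genes had an unadjusted p under 0.05. DESeq2 called none of the 8 it gave an adjusted p for, and 2.01% of all genes. Slit1 was higher in every NF1 culture than in every LTR culture (log2 fold change 1.92 ± 0.68, adjusted p = 0.407) and Robo1 lower (-1.56 ± 0.74, adjusted p = 0.518). These were 2 of 10 genes whose groups did not overlap, beside 12.5% of all genes, 7.21% higher and 5.24% lower. Ntn1 had a log2 fold change of 1.94 ± 0.64 (adjusted p = 0.384), with NF1 3 at 4.47 CPM below the LTR libraries and NF1 1 and 2 above them. Without NF1 2, Robo1 passed as lower in NF1 than in LTR (-3.31, adjusted p = 0.0216). NF1 2 was the highest NF1 culture for 7 of the 10 genes and the lowest for Slit3 and Ntn4.

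Per kilobase of exon, Ntn4 led the cues in 5 of 6 tumour libraries and Ntn1 in all NSC libraries, while Unc5b led the receptors in every library by exon union length. The 5 cues summed to 8.47 to 10.3 CPM per kilobase in LTR and 10.6 to 13.6 in NF1, against 75.1 to 94.9 in NSC. Ntn1 made up 7.75% to 13.8% of that sum in LTR, 6.71% to 65.3% in NF1 and 68.1% to 72.4% in NSC. Ntn4 made up 81.4% to 88.95% in LTR, 30.7% to 89.4% in NF1 and 20.85% to 26.0% in NSC. NF1 2, the culture with 47.7 CPM of Ntn1, was the single tumour library in which Ntn1 exceeded Ntn4 per kilobase. Among the 5 receptors, Unc5b made up 99.0% to 99.2% of the summed level in LTR, 98.3% to 99.9% in NF1 and 50.9% to 85.5% in NSC, where NSC 3 was highest. Robo2 held 9.19% to 28.1% of the receptor sum in NSC and at most 0.069% in LTR. With the length of each gene's principal transcript in place of its exon union, a choice made after the data were seen, the mean Unc5b share in NSC was 44.4%, not 63.1%, and it was 98.1% in LTR and 98.6% in NF1. On that length Robo2 led in NSC 1 (45.1% against 31.8% for Unc5b) and NSC 5 (42.6% against 30.5%), and Unc5b led in NSC 3 and in all tumour libraries.

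**Figure D3:**
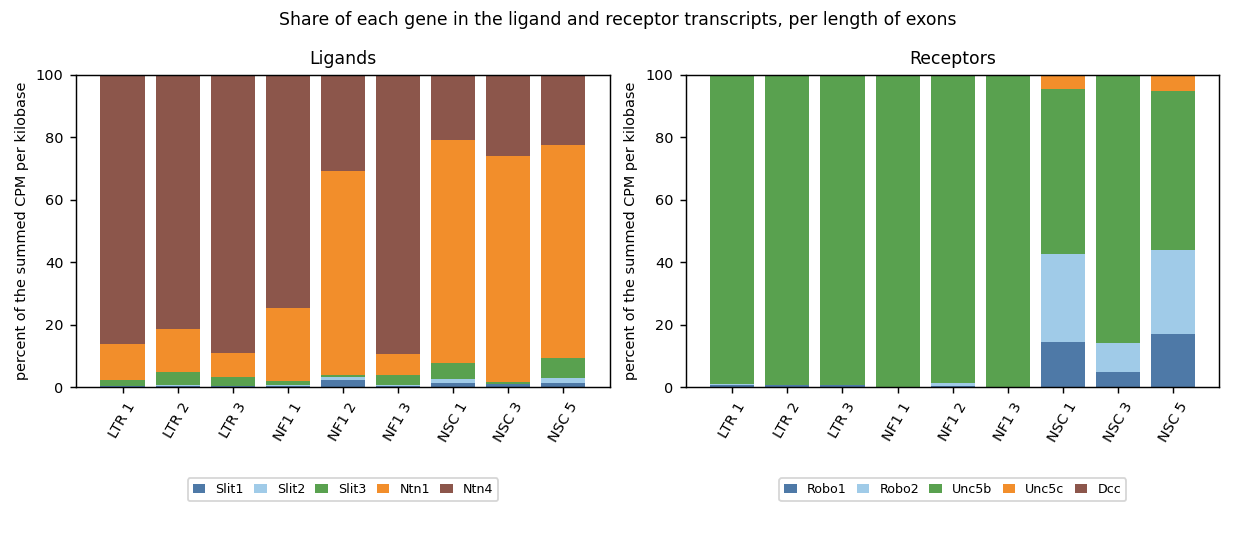
Share of each gene in the summed CPM per kilobase of exon, for the 5 cues and the 5 receptors, with 1 stacked bar per library. Ntn4 fills at least 81.4% of the cue bar in LTR and at most 26.0% in NSC, and Unc5b fills at least 98.3% of the receptor bar in every tumour library.

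The NSC cultures were not alike for these genes, and the genes fell into a steady and an uneven set. Ntn1, Ntn4, Robo1 and Robo2 varied between the 3 NSC cultures by 1.24-fold, 1.09-fold, 1.17-fold and 1.11-fold. The mean of NSC 1 and NSC 5 was 9.63 times the NSC 3 level for Slit2, 14.6 times for Slit3, 4.96 times for Unc5c and 2.0 times for Slit1. NSC 3 was the lowest of the NSC cultures for 7 of the 10 genes and the highest for Unc5b. Several markers of mural cells and fibroblasts also differed between the NSC cultures. The summed level of 8 such markers was 19.5 to 156 CPM in LTR and 7.65 to 41.7 CPM in NF1, against 1556, 209 and 1953 CPM in NSC 1, 3 and 5. In NSC 1, 3 and 5, Acta2, a smooth muscle actin, was at 796, 165 and 918 CPM and Col1a1, a fibrillar collagen chain, at 487, 16.5 and 621 CPM. NSC 3 was the lowest NSC culture for 7 of the 8 markers and the highest for Lum. Of the 8, 6 were lower in every tumour library than in every NSC library, among them Dcn and Lum, which mark fibroblasts and were near the floor throughout, at 3 counts or fewer over each tumour group and 2 to 5 counts in each NSC library. The others went against this. Col3a1, another fibrillar collagen, was at 152, 30.4 and 16.4 CPM in LTR and 4.84, 1.15 and 8.12 CPM in NF1, against 1.75, 0.18 and 1.15 CPM in NSC. The pericyte marker Rgs5 reached 38.4 CPM in NF1 2, against at most 0.51 CPM in NSC. The part of such cells in the results for Slit2, Slit3, Unc5c and Unc5b was not tested. With both NSC 3 and NF1 2 left out, the 3 Slit genes, Ntn1 and Unc5c were still called lower and Unc5b higher in both tumour groups.

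Summed neuronal and ependymal markers lay lower in every tumour library than in NSC. The summed level of 7 neuronal markers was 24.5 to 75.6 CPM in LTR and 19.5 to 51.2 CPM in NF1, against 308 to 469 CPM in NSC. That of 5 ependymal markers was 0.567 to 0.725 CPM in LTR and 0.444 to 5.99 CPM in NF1, against 100.4 to 210.5 CPM in NSC. Few genes carried these sums. Foxj1, a regulator of ciliogenesis, gave 99.9 to 206 CPM of the ependymal sum in NSC, where Pifo, Ccdc153 and Tmem212 were each under 1 CPM. The neuronal sum in NSC came mainly from Map2 (179 to 261 CPM) and Stmn2 (15.5 to 255 CPM). Tubb3, a neuronal tubulin, overlapped between groups, at 18.9 to 61.9 CPM in LTR and 18.05 to 33.4 CPM in NF1, against 26.2 to 28.3 CPM in NSC. The neuronal nuclear marker Rbfox3 was at or under 3 counts over each group. Their part in the lower levels of the guidance genes was not tested. Microglial markers summed to at most 0.178 CPM in LTR, 0.512 CPM in NF1 and 3.66 CPM in NSC, and endothelial markers to at most 7.62 CPM in any library.

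**Figure D4:**
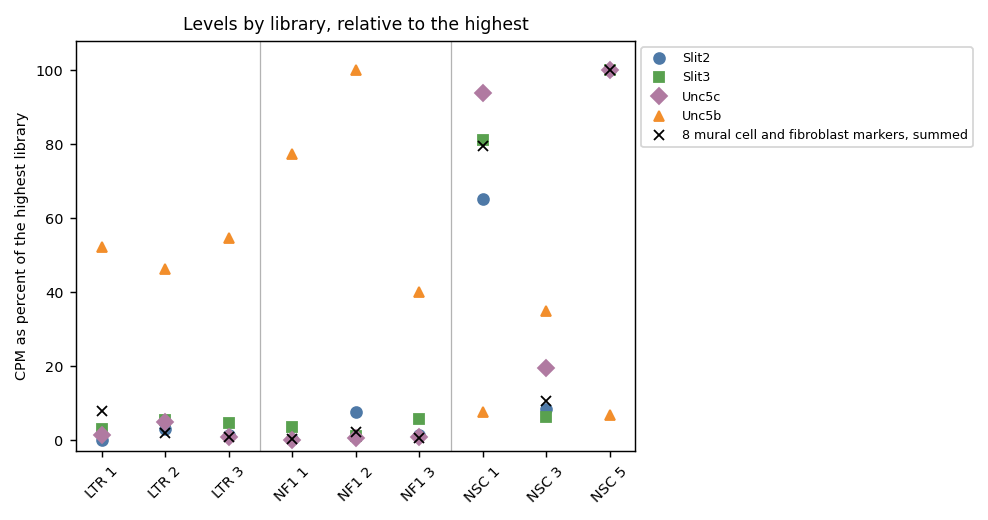
Levels of Slit2, Slit3, Unc5c, Unc5b and the summed mural cell and fibroblast markers in each library, as percent of the highest library. In NSC 3 the first 3 genes and the markers are low and Unc5b is high, relative to NSC 1 and NSC 5.

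The other genes of the Slit and netrin pathways were counted in 5 lists holding 71 genes, of which 67 were tested. In LTR, 24 (35.8%) were lower and 5 (7.46%) higher than in NSC, beside 20.9% lower and 14.9% higher over all genes tested. In the NF1-labelled cultures, 14 (20.9%) were lower and 6 (8.96%) higher, beside 13.1% and 10.1% over all genes, so the share of higher genes was near the background. None passed between NF1 and LTR by edgeR. Without LTR 2 or LTR 3, 14 and 13 were lower in LTR, and 3 were higher in each case. Without NSC 1 or NSC 5, 2 were higher in LTR and 2 in NF1. The NF1 count of lower genes was 26 without NF1 2, 7 without NF1 1 and 9 without NSC 1 or NSC 5.

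The remaining ligands and receptors of these families had calls in 1 direction. In LTR, 6 of 13 tested were lower (46.2%, beside 20.9% of all genes), none was higher, and the median log2 fold change was -2.69. In NF1, 4 of 13 were lower (30.8%, beside 13.1%), none was higher, and the median was -0.91. Without NF1 2, 8 of 13 were lower in NF1. Dscam, an adhesion molecule that also acts as a netrin receptor, had no count in LTR, at least 204-fold under the 6.21 ± 2.20 CPM of NSC (adjusted p = 0.000919), and 0.133 ± 0.0879 CPM in NF1 (log2 fold change -5.50, adjusted p = 0.00241). Rgma, a ligand of neogenin, averaged 11.3 ± 4.44 CPM in LTR and 12.75 ± 10.6 CPM in NF1, against 72.8 ± 15.4 CPM in NSC (adjusted p = 0.007 and 0.0125). Ntng1, the membrane-anchored netrin-G1, averaged 0.235 ± 0.227 CPM in LTR and 0.214 ± 0.342 CPM in NF1, against 11.8 ± 4.21 CPM in NSC (adjusted p = 0.00854 and 0.0115). Neo1, which encodes the DCC relative neogenin, did not pass in LTR (89.95 ± 12.0 CPM) or NF1 (96.3 ± 40.4 CPM), against 135.8 ± 7.52 CPM in NSC (adjusted p = 0.126 and 0.226).

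Intracellular effectors were called about as often as genes at large. Of 24 genes, 3 were higher (12.5%, beside 14.9% of all genes) and 5 lower (20.8%, beside 20.9%) in LTR. In NF1, 4 were higher (16.7%, beside 10.1%) and 3 lower (12.5%, beside 13.1%). These counts were small and moved with single libraries. Without NSC 1 or NSC 5, 1 was higher in LTR and 1 in NF1, and without NF1 1, 2 were higher in NF1. Lower genes in LTR numbered 2 without LTR 2, LTR 3 or NSC 1 and 3 without NSC 5, and in NF1 1 without NF1 1, NSC 1 or NSC 5 and 5 without NF1 2. Srgap2 and Srgap3 encode proteins that bind the Robo receptors. Srgap2 was lower in LTR (58.4 ± 3.67 CPM) and NF1 (69.05 ± 19.2 CPM) than in NSC (202 ± 20.5 CPM; adjusted p = 0.00126 and 0.00242), as was Srgap3 in LTR (7.19 ± 2.38 CPM) and NF1 (26.1 ± 28.7 CPM) against NSC (131.5 ± 41.3 CPM; adjusted p = 0.00452 and 0.0431). Vasp, an actin regulator, was higher in LTR (189 ± 66.3 CPM) and NF1 (162 ± 22.9 CPM) than in NSC (84.6 ± 7.05 CPM; adjusted p = 0.00808 and 0.0257). Pak1, a kinase downstream of Rac, was higher in LTR (221.5 ± 35.8 CPM) and NF1 (300.0 ± 116.7 CPM) than in NSC (106 ± 26.5 CPM; adjusted p = 0.0248 and 0.0098). Nck1, an adaptor that binds DCC, was higher in LTR (48.6 ± 5.25 CPM) and NF1 (54.0 ± 12.3 CPM) than in NSC (29.55 ± 1.04 CPM; adjusted p = 0.0237 and 0.0163). Cdc42, the most abundant member that did not pass, averaged 673 ± 158 CPM in LTR and 677 ± 55.8 CPM in NF1, against 642 ± 87.5 CPM in NSC.

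Among 17 co-receptors and regulators, 8 were lower (47.1%, beside 20.9% of all genes) and 1 higher (5.88%, beside 14.9%) in LTR. In NF1, 4 were lower (23.5%, beside 13.1%) and 1 higher (5.88%, beside 10.1%). Lower genes in LTR numbered 5 without LTR 2 and 4 without LTR 3. Those in NF1 numbered 8 without NF1 2 and 2 without NF1 1, NSC 1 or NSC 5. The 1 higher gene in LTR was lost without LTR 2, LTR 3, NF1 1 or any 1 NSC library, and that in NF1 without NF1 3, NSC 1 or NSC 5, while 2 were higher in NF1 without LTR 2 or NF1 2. Slits need heparan sulfate for strong binding to Robo, and Ext1, which builds the heparan sulfate chain, was lower in LTR (49.35 ± 9.58 CPM) and NF1 (58.0 ± 18.3 CPM) than in NSC (198 ± 27.1 CPM; adjusted p = 0.00143 and 0.00289). Dag1, which encodes dystroglycan, a Slit-binding protein, was lower in LTR (132 ± 13.9 CPM) and NF1 (196 ± 85.8 CPM) than in NSC (516.5 ± 6.23 CPM; adjusted p = 0.00231 and 0.0116). The syndecan gene Sdc3 was lower in LTR (69.3 ± 4.22 CPM) and NF1 (177 ± 134 CPM) than in NSC (585 ± 55.9 CPM; adjusted p = 0.00237 and 0.0257). Ndfip2, an adaptor of Nedd4-family ubiquitin ligases, was higher in NF1 (117 ± 12.8 CPM against 73.4 ± 1.65 CPM in NSC; adjusted p = 0.0152) and did not pass in LTR (87.3 ± 5.52 CPM; adjusted p = 0.226). Its relative Ndfip1 did not pass in LTR (199.5 ± 29.2 CPM) or NF1 (405 ± 200.3 CPM), against 302 ± 118.7 CPM in NSC (adjusted p = 0.225 and 0.426). Of 6 partners of dependence receptor death, 2 were lower in LTR (33.3%, beside 20.9% of all genes) and 1 in NF1 (16.7%, beside 13.1%). The LTR count was 1 when any 1 LTR or NSC library was left out. The NF1 count was 0 without NF1 1 and 2 without NF1 2, when 1 was also higher. Maged1, which binds UNC5 receptors, was lower in LTR (312.5 ± 51.8 CPM) and NF1 (406 ± 106 CPM) than in NSC (830.4 ± 91.0 CPM; adjusted p = 0.00321 and 0.0149), as was the death-associated kinase gene Dapk1 in LTR (0.82 ± 0.599 CPM against 23.1 ± 0.18 CPM in NSC; adjusted p = 0.0449). Dapk1 did not pass in NF1 (3.08 ± 5.16 CPM; adjusted p = 0.178).

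Of 7 basement membrane partners of netrin-4, 3 were lower (42.9%, beside 20.9% of all genes) and 1 higher (14.3%, beside 14.9%) in LTR. In NF1, 2 were lower (28.6%, beside 13.1%) and 1 higher (14.3%, beside 10.1%). The NF1 count of lower genes was 1 without NF1 1, NSC 1 or NSC 5. Lamc1, the laminin gamma 1 chain that netrin-4 binds, was lower in LTR (136 ± 34.7 CPM) and NF1 (117.5 ± 16.6 CPM) than in NSC (454 ± 58.6 CPM; adjusted p = 0.00147 and 0.00146). Itga3, an integrin subunit of laminin receptors, was higher in LTR (227 ± 27.1 CPM) and NF1 (225.5 ± 46.5 CPM) than in NSC (85.7 ± 23.8 CPM; adjusted p = 0.00421 and 0.00607). Itga2, a collagen-binding integrin subunit, was lower in LTR (0.119 ± 0.129 CPM against 7.23 ± 2.44 CPM in NSC; adjusted p = 0.00631) and did not pass in NF1 (0.838 ± 0.989 CPM; adjusted p = 0.0512). Nid1, which links laminin and collagen networks, was lower in LTR (3.52 ± 2.85 CPM) and NF1 (2.59 ± 4.33 CPM) than in NSC (167 ± 31.95 CPM; adjusted p = 0.0203 and 0.0236). Itgb1, the beta 1 integrin subunit, did not pass in LTR (981 ± 127 CPM) or NF1 (948 ± 104 CPM), against 1316 ± 66.0 CPM in NSC (adjusted p = 0.116 and 0.109).

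**Figure D5:**
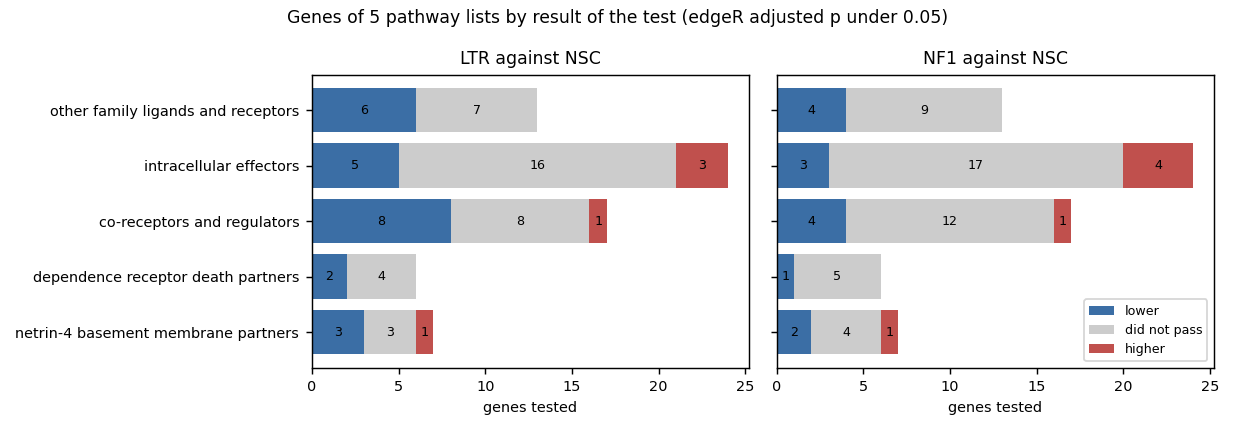
Number of genes in each of 5 pathway lists that were lower, did not pass or were higher (edgeR adjusted p under 0.05), in LTR against NSC on the left and NF1 against NSC on the right. The other ligands and receptors had 6 and 4 lower genes and no higher one, while intracellular effectors had calls in both directions.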

How the data were processed

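Raw counts per gene, as deposited, were available for the 9 libraries. Per the labels' protocols, RNA came from an RNeasy Plus kit and sequencing libraries from a NEBNext Ultra kit, which does not mark strand. Builds GRCm38 and mm10 and the tools DESeq2 1.8.2, HTSeq and STAR 2.5.2a are listed in the submitters' processing notes. Neither counting mode nor annotation release is named there.

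CPM were computed from the counts with TMM scaling. With edgeR 4.0.16 (limma 3.58.1, R 4.3.3), all 9 libraries entered 1 model of the 3 groups after filterByExpr (minimum count 10), and groups were compared by quasi-likelihood F tests, adjusted by Benjamini-Hochberg over 15696 genes. SEs were derived from F. The prior count in fitted fold changes was 0.125. Exact 95% intervals and floors of 3 counts cover counting error only. Coordinates and exon lengths are from GENCODE M21, and promoters from RefSeq.

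The 10 genes and all lists were chosen with earlier results of these data known. Named pathway genes are the 3 called genes with the smallest adjusted p of each list and comparison, and the most abundant that was not called. One gene that this rule names is not reported here. Alternatives were DESeq2 1.42.0, DESeq2 size factors, other filters, leaving out each library in turn or both NF1 2 and NSC 3, a replicate block, and fits restricted to the 6 libraries of a comparison. Libraries of a group differed by a chi-square per degree of freedom of 14.45 to 436.3, so none is a copy. The lowest value was that of NSC 1 against NSC 5, which differed from NSC 3 by 198.6 and 223.6. These values cannot tell whether cultures share an origin. The script was tested on simulated data with known changes. The simulated counts followed the model that the test assumes and held no outlying library, so they cannot speak to NF1 2 or NSC 3.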

Additional observations from a re-analysis of the deposited data

How the results depend on the processing

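Of the alternative values for single genes among the 10, over all 3 comparisons, 433 kept their direction and their side of the threshold. Of the rest, 37 no longer passed, 11 newly passed and 12 changed sign, and the cause was not tested. In NF1 against LTR no gene had passed, so no call could be lost there. Against NSC alone, 283 values kept both, 37 no longer passed, 9 newly passed and 2 changed sign. The calls of Slit1, Ntn1 and Unc5c in both tumour groups against NSC, and of Robo1 in NF1 against NSC, held under every alternative run. Higher genes in LTR against NSC numbered 1 with DESeq2, with a filter of 1 CPM in 3 libraries, with no filter and without NF1 2 and NSC 3, not 0, and in NF1 against NSC 0 with only the 6 libraries compared, not 1. In that fit of 6 libraries Unc5b, Slit2 and Ntn4 did not pass in NF1 against NSC (edgeR adjusted p = 0.0713, 0.0612 and 0.0762). Leaving out 1 library at a time gave 0 to 1 higher and 3 to 9 lower genes in LTR against NSC, 0 to 1 higher and 5 to 9 lower in NF1 against NSC, and 0 to 1 lower in NF1 against LTR, where 1 was also lower without NF1 2 and NSC 3. For the pathway lists it gave 2 to 5 higher and 13 to 29 lower genes in LTR, and 2 to 8 higher and 7 to 26 lower in NF1, against NSC. Without NF1 2 and NSC 3, 28 list genes were lower in NF1 against NSC. With no filter, 3 list genes were higher in LTR against NSC, and DESeq2 called 1 as higher in NF1 against LTR.

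Same-numbered libraries deviated together with correlations of -0.185 to 0.121, and differently numbered ones with -0.135 to 0.133. No pairing by number was thus seen, but with 3 libraries a group this cannot exclude it. With the replicate block, higher genes in NF1 against NSC numbered 0 and lower genes 4, and list genes called higher numbered 1 in LTR and 2 in NF1 against NSC. Slit3 passed in neither LTR nor NF1 with the block (edgeR adjusted p = 0.173 and 0.133), nor did Ntn4 (0.0836 and 0.0667). Slit2 and Unc5b did not pass in NF1 with it (0.0561 and 0.148). No tumour culture shares the number of NSC 5, so the block fits NSC 5 with its own term and takes it out of the comparisons. Over all genes the block called 3477 in LTR against NSC, not 5634, and 1942 in NF1 against NSC, not 3631. The share of these called higher was 29.5% and 28.1%, against 41.6% and 43.5% without the block. Leaving out NSC 5, with no block, gave 3452 and 1857 calls, of which 34.15% and 35.4% were higher. The Dcc log2 fold change in NF1 against NSC was -2.37 with the block and, with single libraries left out, -6.63 (without NF1 2) to 2.29.

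For NF1 against LTR, where no gene passed, signs changed without NF1 2 for Slit2 (-0.68), Slit3 (0.09), Robo2 (-2.29), Ntn4 (0.32) and Dcc (-3.34), and without NF1 2 and NSC 3 for Slit2 (-0.67), Slit3 (0.09), Robo2 (-2.30) and Ntn4 (0.32). With single libraries left out, these values ranged over -0.68 to 1.84 for Slit2, -0.89 to 0.09 for Slit3, -2.29 to 5.54 for Robo2, -0.27 to 0.32 for Ntn4 (0.09 without LTR 3) and -3.34 to 5.72 for Dcc. DESeq2 gave no adjusted p for Robo2 and Dcc in any comparison. Depth limits Dcc most, with at most 20 counts in any library but NF1 2.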

Other observations

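For each of the 10 genes, the genes with the most similar pattern over the 9 libraries were found among 9705 genes with a mean of at least 8 CPM. Likeness was the root mean square difference of centred log2(CPM + 0.5) values, and no test was made. The added 0.5 flattens differences where a gene lies near or under 0.5 CPM, so a small distance need not mean a like fold change. Levels under 0.5 CPM were found, among others, for Slit1 in LTR, Unc5c in NF1 and Dcc in every library but NF1 2. Unc5c was 132-fold lower in NF1 than in NSC by the test. Col5a2, listed below for it, was at 48.1, 82.4 and 59.2 CPM in NF1, against 924, 234 and 1142 CPM in NSC. Gab1, an adaptor of receptor tyrosine kinases, was closest to Slit1 (0.132 on the log2 scale) and Id2, an inhibitor of basic helix-loop-helix factors, to Ntn4 (0.213). Ctgf, a matricellular growth factor, was closest to Slit2 (0.548) and Fstl1, a secreted glycoprotein, to Slit3 (0.591). The basement membrane gene Nid2 (0.374) and the fibrillar collagen gene Col5a2 (0.376) were closest to Unc5c. Fgfr3, a fibroblast growth factor receptor, was closest to Robo2 (0.475), Ctnna2, a catenin, to Robo1 (0.419), and Slc25a18, a mitochondrial glutamate carrier, to Ntn1 (0.418). Htr1b, a serotonin receptor, was closest to Unc5b (0.317), and Wfs1, a protein of the endoplasmic reticulum, to Dcc (0.241).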
